A study of Mus musculus with 10 samples.

Results

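The proteases Adamts1, Adamts5 and Adamts4 were examined together with the lectican proteoglycans that they cleave, Acan, Bcan, Ncan and Vcan, and with the link protein gene Hapln1, in the hippocampus of Dp5/Dp1 mice. These 8 genes were taken by name for their roles in the brain matrix, out of 19938 genes tested. Each had 1 probe set with a single gene symbol, so no choice between probe sets entered their values. Gene expression was measured in 5 Dp5/Dp1 mice and 5 control littermates, all male and 16 weeks old, with 1 Affymetrix Mouse Gene 1.0 ST array for the whole right and left hippocampus of each mouse. Dp5/Dp1 mice are a model of Down syndrome. They carry the Dp5Yah duplication (Cyyr1 to Clic6) and the Dp1Rhr duplication (Cbr1 to Fam3b) of mouse chromosome 16 as a compound. By the study's description this gives 3 copies of the genes inside, although its methods also list Cyyr1 among genes not in 3 copies. The controls carry 2 copies. They are marked as re-analysed in the labels, and were also the littermates of mice with either duplication alone, whose arrays were not used here. The background of all of these mice is C57BL/6N in the labels and C57BL/6J in the study's methods. Titles of the Dp5/Dp1 arrays name Dp5Yah with the compound model in brackets. Levels are RMA log2 expression. Differences are those of Dp5/Dp1 from control on the log2 scale (Dp5/Dp1 minus control), each ± its standard error (SE). RMA is a background correction, a quantile normalization and a summary per probe set.

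ADAMTS proteases are secreted zinc metalloproteases with thrombospondin repeats, and ADAMTS1, ADAMTS4 and ADAMTS5 cut the core proteins of the lecticans. The lecticans aggrecan, brevican, neurocan and versican are chondroitin sulfate proteoglycans that bind hyaluronan at their N-terminal end, and link proteins such as HAPLN1 hold that bond in place. Together with tenascin-R they build the diffuse matrix of the brain and the perineuronal nets, dense coats that enwrap many parvalbumin interneurons. Adamts1 and Adamts5 lie side by side in the Dp5Yah duplication, whereas Adamts4, the lecticans and Hapln1 lie on other chromosomes and are present in 2 copies in all mice.

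The bases just before an annotated transcription start are shown for 3 of the genes, because Adamts1 is the triplicated gene with the larger difference and because Ncan was the lectican with the strongest (inverse) correlation with a marker list, with Bcan closest to it in pattern among the 8 genes. They are the 250 bases upstream of the start in the RefSeq promoter table (GRCm38.p6), which held a window for 6 of the 8 genes and none for Adamts5 and Adamts4. The starts used for Bcan and Ncan lie inside the gene spans given below, so their windows are upstream of 1 annotated start and not of the outermost end of the gene. Each is written 5' to 3' along the gene, and capitals mark a TATA box (TATAAA), a GC box (GGGCGG) or a CCAAT box (CCAAT) on either strand.
Adamts1 (chr16:85803114-85803363, minus strand): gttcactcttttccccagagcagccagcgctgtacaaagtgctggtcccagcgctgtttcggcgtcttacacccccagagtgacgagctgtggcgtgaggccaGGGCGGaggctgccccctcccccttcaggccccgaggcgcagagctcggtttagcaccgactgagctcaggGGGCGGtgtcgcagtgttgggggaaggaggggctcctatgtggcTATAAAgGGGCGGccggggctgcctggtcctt
Bcan (chr3:88000357-88000606, minus strand): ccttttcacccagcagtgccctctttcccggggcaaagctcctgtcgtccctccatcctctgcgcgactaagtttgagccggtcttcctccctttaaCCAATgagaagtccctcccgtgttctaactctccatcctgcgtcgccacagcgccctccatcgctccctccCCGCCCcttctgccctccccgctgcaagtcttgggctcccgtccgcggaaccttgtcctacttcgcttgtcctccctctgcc
Ncan (chr8:70120845-70121094, minus strand): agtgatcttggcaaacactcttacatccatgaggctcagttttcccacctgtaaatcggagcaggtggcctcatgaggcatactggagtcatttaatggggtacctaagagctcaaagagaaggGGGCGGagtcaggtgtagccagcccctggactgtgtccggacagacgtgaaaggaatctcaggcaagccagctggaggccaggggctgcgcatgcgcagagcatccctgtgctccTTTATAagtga
The Adamts1 window held 1 TATA box, which began 32 bases before the start, and 3 GC boxes, with a GC content of 65.6%. The Bcan window held 1 GC box and 1 CCAAT box at a GC content of 62.0%. The Ncan window held 1 GC box, and a TATA box on the opposite strand that began 11 bases before the start, at a GC content of 54.4%. Of all 32851 upstream windows of this length, 12.4% held TATAAA, 32.7% held GGGCGG and 33.8% held CCAAT, and their median GC content was 52.4%. A match describes these letters only and was not tested for binding.

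The main question was whether the triplicated proteases, and with them their substrates, differed in Dp5/Dp1 hippocampi. None of the 8 genes passed the test in either direction. With limma over 19938 genes and a Benjamini-Hochberg adjusted p under 0.05 as the threshold, 0 of 8 were called higher, against 40 of all genes (0.201%), and 0 of 8 lower, against 1 gene (0.00502%). At an unadjusted p under 0.05, 2 of 8 were higher, which were Adamts1 and Adamts5, against 676 of all genes (3.39%), and 0 of 8 were lower, against 532 (2.67%). By FCROS, the rank method of the study as rewritten for this purpose, 1 of 8 was higher, Adamts1, against 567 of all genes (2.84%), and 0 of 8 lower, against 441 (2.21%). For 0 of 8 genes did all 5 Dp5/Dp1 arrays lie above all controls or all below, against 152 (0.762%) and 64 (0.321%) of all genes. In a whole tissue, fewer cells of a type and less RNA per cell cannot be told apart.

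Adamts1 encodes a secreted protease that cuts aggrecan, brevican and versican (GRCm38 chr16:85793827-85803113). Its level in Dp5/Dp1 replicates 1 to 5 was 8.31, 8.35, 8.85, 8.35 and 8.19, against 8.17, 8.02, 8.31, 8.11 and 7.95 in control replicates 1 to 5. Dp5/Dp1 replicate 3 stood 0.51 above the next array, and Dp5/Dp1 replicate 5 was below the highest control, so the groups overlapped. Adamts1 averaged 8.41 ± 0.26 in Dp5/Dp1 and 8.11 ± 0.14 in controls (SD, n = 5 each), a log2 difference of 0.30 ± 0.11 (1.23-fold, 95% interval 0.06 to 0.54), with limma adjusted p = 0.806. Without Dp5/Dp1 replicate 3 the Dp5/Dp1 mean was 8.30 ± 0.07 (n = 4) and the log2 difference 0.19, with limma adjusted p = 0.981. The within-group SD of Adamts1, 0.21, was larger than that of 97.6% of all genes tested.

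Adamts5 encodes the main aggrecanase of mouse cartilage, which also cuts versican and brevican (chr16:85858157-85901125). Dp5/Dp1 replicates 1 to 5 had levels of 5.75, 5.69, 5.80, 5.69 and 5.73, against 5.62, 5.69, 5.53, 5.69 and 5.60 in control replicates 1 to 5. Dp5/Dp1 replicates 2 and 4 were level with control replicates 2 and 4 to the second decimal, and the other Dp5/Dp1 arrays were above every control. Adamts5 averaged 5.73 ± 0.05 in Dp5/Dp1 and 5.63 ± 0.07 in controls (SD, n = 5 each), a log2 difference of 0.11 ± 0.04 (1.08-fold, 95% interval 0.02 to 0.19), with limma adjusted p = 0.8. Its probe set was among the dimmest 40% of genes, and the part of brightness in the size of the difference was not tested.

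Adamts4, an aggrecanase present in 2 copies (chr1:171250129-171262267), is known in brain from oligodendrocytes. In Dp5/Dp1 replicates 1 to 5 it was measured at 8.82, 8.80, 8.72, 8.61 and 8.54, against 8.56, 8.73, 8.64, 8.70 and 8.69 in control replicates 1 to 5. Dp5/Dp1 replicates 1 and 2 were above all controls and Dp5/Dp1 replicate 5 was below all of them. The log2 difference was 0.03 ± 0.06 (95% interval -0.09 to 0.16, limma adjusted p = 0.945). Whether the proteases changed by different amounts was tested on the difference of their log2 values within each array by exact permutation (two-sided, 252 assignments). The change of Adamts1 exceeded that of Adamts5 by 0.19 ± 0.13 (SE; exact permutation p = 0.167, adjusted p = 0.25 over 3 comparisons) and that of Adamts4 by 0.26 ± 0.14 (exact permutation p = 0.0873, adjusted p = 0.25). Without Dp5/Dp1 replicate 3 these excesses were 0.10 and 0.16. The change of Adamts5 exceeded that of Adamts4 by 0.07 ± 0.06 (exact permutation p = 0.27, adjusted p = 0.27), and by 0.03 without Dp5/Dp1 replicate 5. None of these differences passed the threshold, and the smallest p that 5 against 5 arrays allow is 0.00794.

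**Figure D1:**
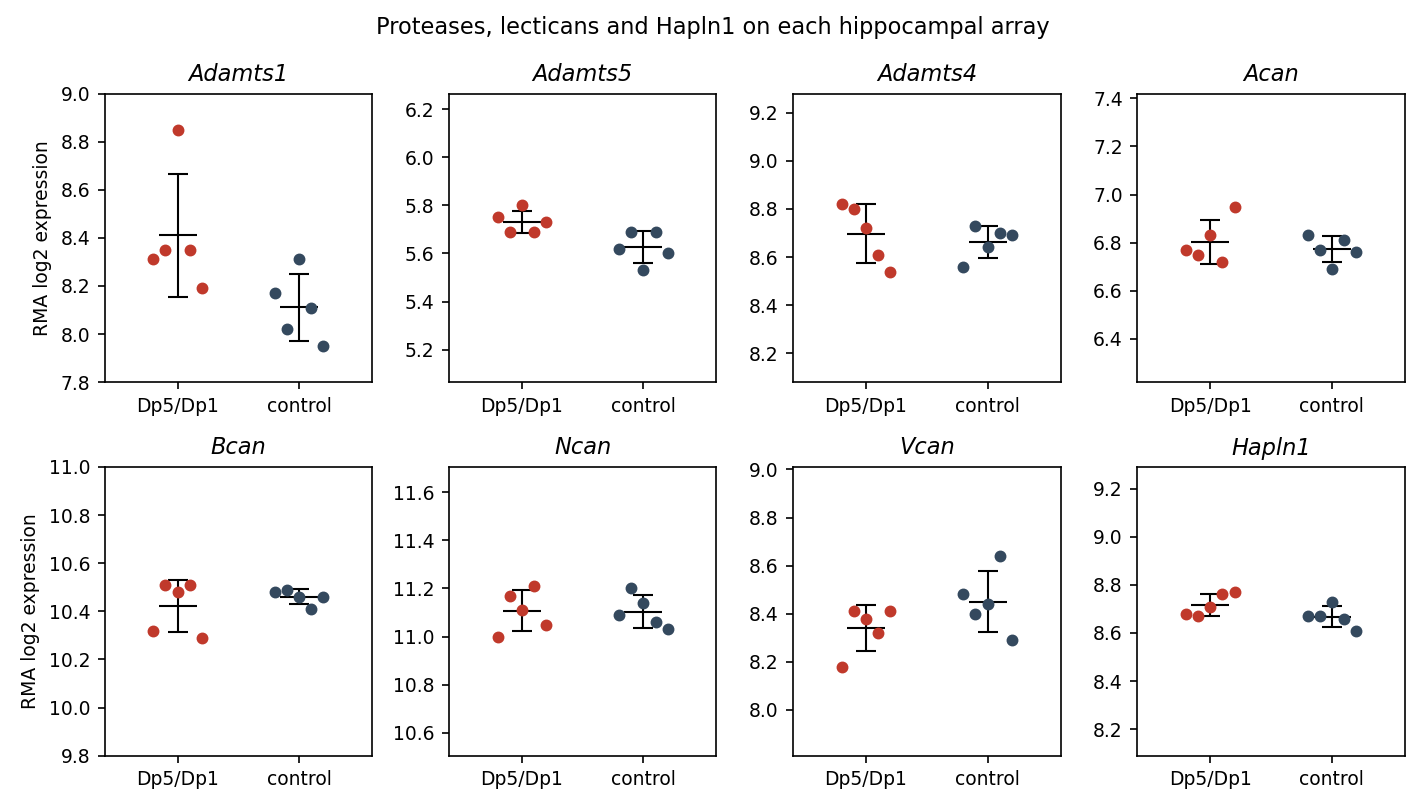
RMA log2 expression of the 8 genes on each array, with Dp5/Dp1 (red) left of control (blue); points are single mice and bars are the mean ± SD of 5 arrays. Every panel spans the same range of log2 units. Dp5/Dp1 replicate 3 lies at 8.85 for Adamts1, above the other 9 arrays, and in every panel the groups overlap.

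Acan encodes aggrecan, the lectican of perineuronal nets (chr7:79053226-79115099). Its level in Dp5/Dp1 replicates 1 to 5 was 6.77, 6.75, 6.83, 6.72 and 6.95, against 6.83, 6.77, 6.69, 6.81 and 6.76 in control replicates 1 to 5. Dp5/Dp1 replicate 5 was the highest array and the others lay within the range of the controls. The log2 difference was 0.03 ± 0.05 (95% interval -0.07 to 0.13, limma adjusted p = 0.935), and it was -0.01 without Dp5/Dp1 replicate 5. Bcan encodes brevican, a lectican of the adult brain made by glia and neurons (chr3:87987531-88002175). Dp5/Dp1 replicates 1 to 5 had levels of 10.32, 10.51, 10.48, 10.51 and 10.29, against 10.48, 10.49, 10.46, 10.41 and 10.46 in control replicates 1 to 5. Dp5/Dp1 replicates 1 and 5 were below all controls, and Dp5/Dp1 replicates 2 and 4 were above all of them. The log2 difference was -0.04 ± 0.05 (95% interval -0.14 to 0.07, limma adjusted p = 0.919), with an SD of 0.11 in Dp5/Dp1 and 0.03 in controls.

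Ncan encodes neurocan, a lectican of nervous tissue (chr8:70093085-70120863). In Dp5/Dp1 replicates 1 to 5 it was measured at 11.00, 11.17, 11.11, 11.21 and 11.05, against 11.09, 11.20, 11.14, 11.06 and 11.03 in control replicates 1 to 5. Dp5/Dp1 arrays were both the highest and the lowest, and the log2 difference was 0.01 ± 0.05 (95% interval -0.10 to 0.11, limma adjusted p = 0.989). Vcan encodes versican, a lectican also found outside the brain and around vessels (chr13:89655309-89743027). Its level in Dp5/Dp1 replicates 1 to 5 was 8.18, 8.41, 8.38, 8.32 and 8.41, against 8.48, 8.40, 8.44, 8.64 and 8.29 in control replicates 1 to 5. Dp5/Dp1 replicate 1 was the lowest array and control replicate 4 the highest. The log2 difference was -0.11 ± 0.06 (95% interval -0.25 to 0.03, limma adjusted p = 0.841), the largest in size among the lecticans. It was -0.06 without control replicate 4 and -0.07 without Dp5/Dp1 replicate 1. Hapln1, the link protein gene, is the direct neighbour of Vcan (chr13:89540529-89611832), with 43476 bp and no measured gene between them. Dp5/Dp1 replicates 1 to 5 had levels of 8.68, 8.67, 8.71, 8.76 and 8.77, against 8.67, 8.67, 8.73, 8.66 and 8.61 in control replicates 1 to 5. Dp5/Dp1 replicates 4 and 5 were above all controls, and the log2 difference was 0.05 ± 0.03 (95% interval -0.02 to 0.12, limma adjusted p = 0.858). Hapln1 and Vcan thus had differences of opposite sign, neither past the threshold.

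In this fit the upper end of the 95% interval lay below 0.58 for each of the 8 genes on the RMA scale. That value is the log2 of 1.5, which 3 copies against 2 would give in proportion. It applies to the triplicated Adamts1 and Adamts5 only, as the other genes are in 2 copies. The interval of Adamts1, up to 0.54, came closest, and it did not stay below in 5 of 20 other settings. Its upper end was 0.62 with array weights, 0.67 without Dp5/Dp1 replicates 2 and 5, 0.59 without Dp5/Dp1 replicate 1, and 0.60 without Dp5/Dp1 replicate 5 or control replicate 3. For Adamts5 it was at most 0.23 in 19 settings. For the lecticans the intervals reached from -0.25 to 0.13. Of the genes from Cyyr1 to Clic6 that were called higher, described below, the largest difference was 0.66 and the next largest 0.50. The median over the 59 genes counted there was 0.29. A difference below 0.58 was thus usual in the duplication on these arrays, and its cause was not tested.

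**Figure D2:**
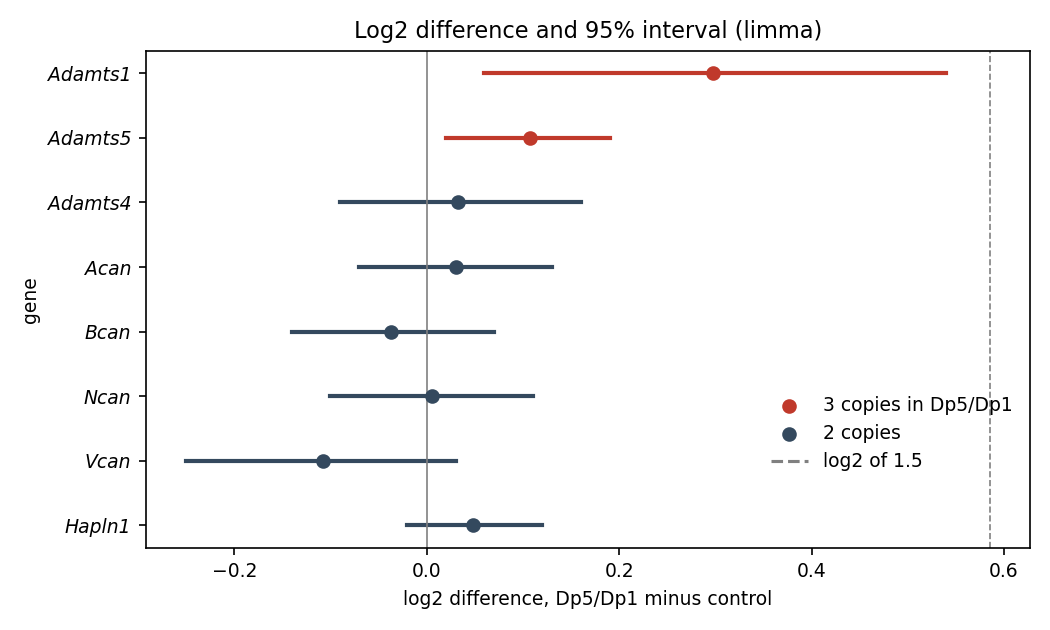
Log2 difference (Dp5/Dp1 minus control) of each gene, as a point, with its 95% interval from limma as a line; genes in 3 copies in Dp5/Dp1 are red and genes in 2 copies blue, and the dashed line is the log2 of 1.5. Only the intervals of Adamts1 (0.06 to 0.54) and Adamts5 (0.02 to 0.19) lie above 0, and in this fit, though not for Adamts1 in every other setting, the intervals end below 0.58.

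The position of the Adamts1 and Adamts5 pair in the duplication was then considered. The genes are 55043 bp apart with no measured gene between them, 243 kb from Cyyr1 on the proximal side and 1453 kb from N6amt1 on the distal side. Cyyr1, with which the study starts the duplicated interval, had levels of 8.90, 8.91, 8.89, 8.86 and 8.73 in Dp5/Dp1, against 8.18, 8.52, 8.35, 8.87 and 8.27 in controls. The log2 difference was 0.42 ± 0.11 and not past the threshold (limma adjusted p = 0.447). Control replicate 4 was at the level of the Dp5/Dp1 arrays, and without it the difference was 0.53 with adjusted p = 0.00844. Proximal to Cyyr1, App and Gabpa had differences of -0.02 ± 0.03 and -0.03 ± 0.07, and the gene model Gm10791 had 0.08 ± 0.07, none past the threshold. The study built the duplication from a site inserted in App, of which it reports 2 complete copies expressed. Gm10791 lies within the span of App, so whether it is duplicated is not settled here. On the distal side N6amt1, a methyltransferase subunit gene, rose by 0.47 ± 0.06 (limma adjusted p = 0.00653) and Ltn1, a ubiquitin ligase gene of ribosome quality control, by 0.38 ± 0.05 (adjusted p = 0.00576). Rwdd2b rose by 0.50 ± 0.08 (adjusted p = 0.025) and Usp16, a histone deubiquitinase gene, by 0.41 ± 0.07 (adjusted p = 0.0479). The call of Rwdd2b was lost without Dp5/Dp1 replicate 1 or 3 or control replicate 1, 2, 4 or 5 (adjusted p up to 0.0987). That of Usp16 was lost without any single array other than replicate 3 of either group (adjusted p 0.0561 to 0.175).

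Of 59 genes measured from Cyyr1 to Clic6, without 23 claudin and keratin-associated genes, 25 were called higher (42.4%) and 0 lower. Those 23 were left out by symbol (Cldn or Krtap), and gene models under other symbols stayed among the 59. By size of the log2 difference Adamts1 ranked 28 and Adamts5 39 of the 59, with a median of 0.29 over all of them. The called genes had differences of 0.27 to 0.66, and 5 of them had a smaller difference than Adamts1. The within-group SD of Adamts1, 0.21, ranked 6 among the 59, and called genes had SDs of up to 0.14 with a median of 0.07. A call itself requires a small SD for a given difference, so this is a description. Adamts5 had an SD of 0.06 and a difference of 0.11, below those of the called genes. The dimmest 40% of genes, to which Adamts5 belongs, held 21 of the 34 that did not pass and 0 of the 25 that did.

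**Figure D3:**
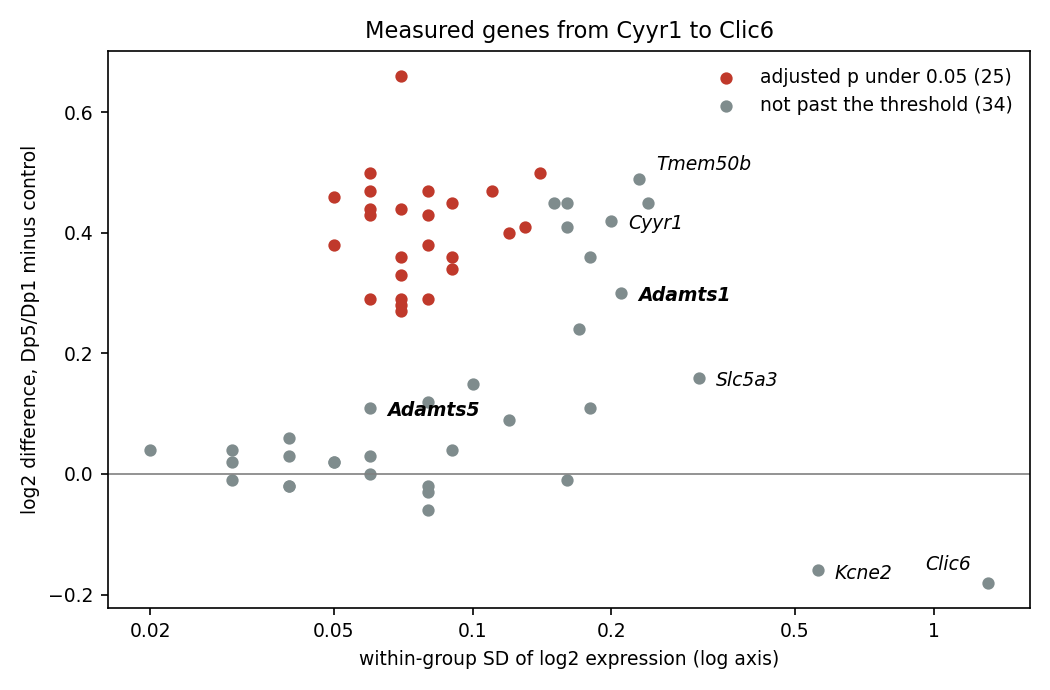
Log2 difference (Dp5/Dp1 minus control, y axis) of the 59 genes from Cyyr1 to Clic6 against their within-group SD (x axis, log scale); red points passed an adjusted p of 0.05 in limma and grey points did not. Adamts1 lies at the height of called genes but to the right of all of them, at an SD of 0.21, and Adamts5 lies below them at an SD of 0.06.

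The remaining genes of the pathway were read from 9 lists, which held 107 measured genes of 110 listed. None of them passed the limma threshold. Where p was left unadjusted and set at under 0.05, 2 were higher and 9 lower, against 3.39% and 2.67% of all genes. The median log2 difference was -0.00 over the 107, 0.03 over the 8 proteases, lecticans and Hapln1, and 0.0019 over all genes. By mean, 52 of the 107 were higher and 55 lower.

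Among other link proteins and perineuronal net partners, 1 of 11 was lower at the unadjusted threshold, against 2.67% of all genes. This was Ptprz1, which encodes a receptor phosphatase and a secreted form, the proteoglycan phosphacan. In Dp5/Dp1 replicates 1 to 5 it was measured at 10.65, 10.98, 10.96, 10.92 and 10.90, against 11.25, 11.12, 11.06, 11.11 and 11.04 in control replicates 1 to 5. All 5 Dp5/Dp1 arrays were below all controls, as for 0.321% of all genes, and the log2 difference was -0.23 ± 0.06 (limma adjusted p = 0.499). Without Dp5/Dp1 replicate 1 the difference of Ptprz1 was -0.17. Tnr, which encodes the lectican-binding tenascin-R, had a difference of -0.05 ± 0.03 (adjusted p = 0.841).

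Among inhibitors and uptake receptors of the proteases, 2 of 8 were lower at an unadjusted p under 0.05, against 2.67% of all genes. Sdc4, a syndecan that binds ADAMTS proteases at the cell surface, had a difference of -0.23 ± 0.09 (limma adjusted p = 0.806; -0.15 without control replicate 4), and Timp2, a metalloprotease inhibitor, of -0.11 ± 0.05 (adjusted p = 0.823). In the list of metalloproteinases and proprotein convertases, Furin, which cuts the propeptide of ADAMTS proenzymes, had a difference of -0.10 ± 0.04 and Pcsk5, a related convertase, of 0.09 ± 0.04 (adjusted p = 0.806 for both). Of 15 other ADAMTS proteases, 2 were lower at the unadjusted threshold, against 2.67% of all genes, Adamts20 by mean log2 difference -0.15 ± 0.06 and Adamts17 by -0.07 ± 0.03 (adjusted p = 0.806 and 0.818). The 6 ADAMTS-like genes, which encode relatives without a protease domain, had differences between -0.00 and 0.06, with Adamtsl1 at 0.06 ± 0.04 and Adamtsl3 at 0.04 ± 0.04. Adamtsl1 was at 0.03 without Dp5/Dp1 replicate 2 and at 0.02 with its probe sets averaged. Adamtsl3, among the dimmest 40% of genes, ran from 0.02 to 0.06 as single arrays were left out. It was lowest without Dp5/Dp1 replicate 4 and highest without control replicate 1.

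Of 22 chondroitin sulfate synthesis genes, 11 were higher and 11 lower by mean. Those with the lowest p were the sulfotransferase genes Chst7 at 0.10 ± 0.04 and Chst12 at 0.08 ± 0.04 (limma adjusted p = 0.815 and 0.832), and Chst12 was at 0.05 without Dp5/Dp1 replicate 1. Of 11 hyaluronan genes, Cemip, which encodes a hyaluronan-degrading protein, had a difference of -0.13 ± 0.04 (adjusted p = 0.737) and the receptor gene Lyve1 of -0.12 ± 0.08, which was -0.04 without control replicate 4. Of 14 heparan sulfate proteoglycan genes, the glypicans Gpc5 and Gpc3 had differences of -0.14 ± 0.04 (adjusted p = 0.64) and -0.10 ± 0.05. Of 8 small leucine-rich proteoglycan genes, Bgn (biglycan) and Aspn (asporin) had differences of -0.24 ± 0.10 and -0.16 ± 0.11 (adjusted p = 0.812 and 0.864). Aspn was at -0.07 without Dp5/Dp1 replicate 1 and at -0.10 without control replicate 4. The probe sets of Chst7, Lyve1, Gpc3 and Aspn were among the dimmest 40% of genes.

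**Figure D4:**
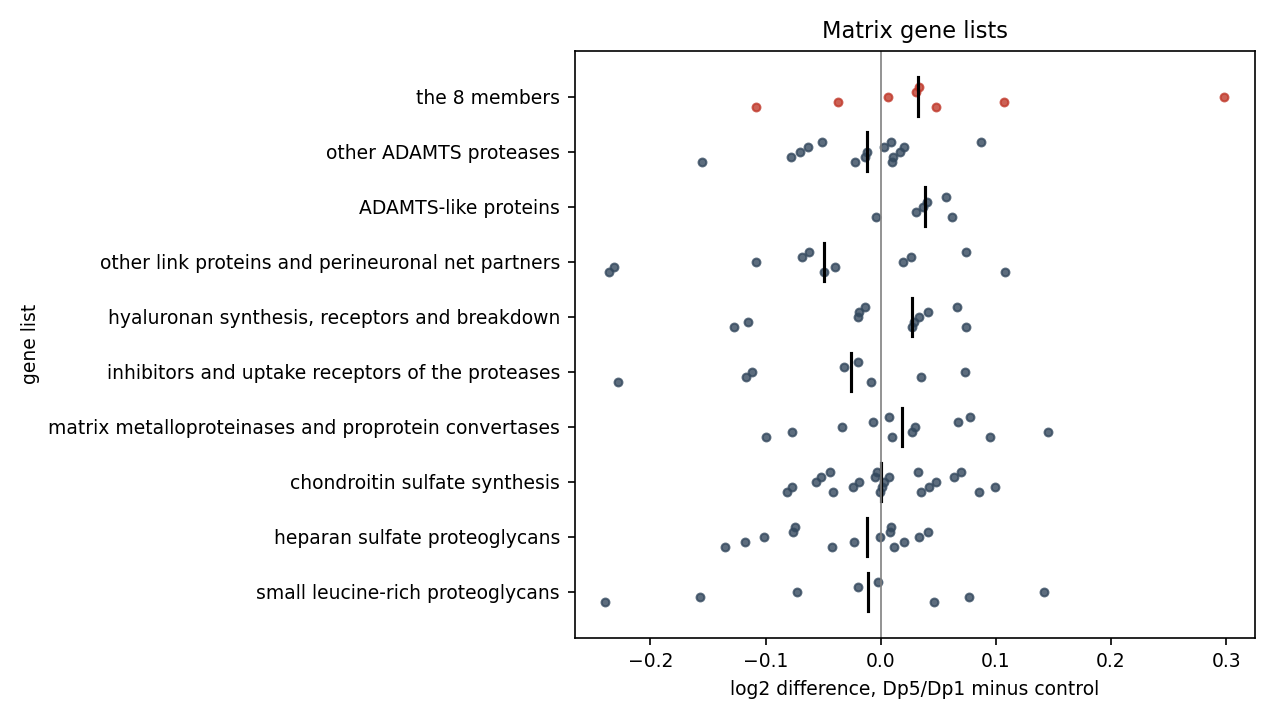
Log2 difference (Dp5/Dp1 minus control) of every measured gene of the matrix lists, 1 point per gene, with the 8 proteases, lecticans and Hapln1 in red; vertical bars are list medians. Medians lie between -0.05 and 0.04, and Adamts1, at 0.30, is the point farthest to the right.

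Cell type markers were read beside these values. Hippocampal neuron markers (9 of 9 measured) had list means of 10.47 to 10.57 in Dp5/Dp1 and 10.50 to 10.58 in controls. Parvalbumin interneuron markers (7 of 7) had list means of 9.95 to 10.08 in Dp5/Dp1 and 9.94 to 10.05 in controls. By mean 3 of them were higher and 4 lower, with a median log2 difference of -0.01. Pvalb and Gad1 were higher at an unadjusted limma p under 0.05, against 3.39% of all genes, Pvalb by 0.21. Choroid plexus markers (8 of 9) varied over 7.40 to 9.31 in Dp5/Dp1 and 7.30 to 9.69 in controls, and medial habenula markers (7 of 7) over 6.67 to 8.13 in Dp5/Dp1 and 6.59 to 7.15 in controls. All 8 choroid plexus markers were lower by mean (median log2 difference -0.41), and all 7 habenula markers higher (median 0.34, Tac2 at 0.92). No marker of these lists passed the adjusted threshold. With the choroid plexus mean as a covariate the difference of Adamts1 was 0.31 (limma adjusted p = 0.711), and without Dp5/Dp1 replicates 2 and 5, whose habenula markers were high, it was 0.39 (adjusted p = 0.656). With the choroid plexus covariate the differences of Sdc4 and Bgn were smaller in size, at -0.18 and -0.19, against -0.23 and -0.24 without it. That of Gpc5 stayed at -0.14. The part of choroid plexus RNA in these genes was not tested.

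Adamts1 is known from vascular cells, and endothelial (8 of 9 measured) and mural (8 of 8) markers were set beside it. Of the 8 endothelial markers 4 were higher and 4 lower by mean (median log2 difference 0.03). Cldn5, Kdr and Tek were higher at an unadjusted p under 0.05, against 3.39% of all genes, with Cldn5 at 0.25. Of the 8 mural markers 1 was higher and 7 lower by mean, none past that threshold. The mean of these 16 markers in Dp5/Dp1 replicates 1 to 5 was 8.64, 8.64, 8.80, 8.66 and 8.65, against 8.79, 8.59, 8.62, 8.69 and 8.56 in control replicates 1 to 5. Dp5/Dp1 replicate 3 had the highest marker mean as well as the highest Adamts1 level, whereas control replicate 1 was near it in marker mean with Adamts1 at 8.17. Over the 10 arrays, after centring each group, Adamts1 and mural markers had r = 0.75 and rho = 0.65 (exact permutation within groups p = 0.033 and 0.0761, adjusted p = 0.386 and 0.406 over 96 pairs). Without the 2 arrays whose centred marker mean was farthest from its median, r was 0.52. For endothelial markers r was 0.54 and rho 0.65 (exact permutation p = 0.0678 and 0.0761, adjusted p = 0.422 and 0.406), and without the 2 farthest arrays r was 0.03. With the vascular marker mean as a covariate, chosen after seeing the data, the difference of Adamts1 was 0.25 (limma adjusted p = 0.721). The part of vascular RNA in the level of replicate 3 was not tested.

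Of the 96 pairs of a gene and a marker list, 1 passed the adjusted threshold by Pearson's r. Ncan and the hippocampal neuron mean had r = -0.96 (exact permutation within groups p = 0.000347, adjusted p = 0.0333) and rho = -0.90 (exact permutation p = 0.00431, adjusted p = 0.406). The value was -0.96 within Dp5/Dp1 and -0.95 within controls, and -0.90 without the 2 farthest arrays. The neuron mean in Dp5/Dp1 replicates 1 to 5 was 10.56, 10.49, 10.52, 10.47 and 10.57, against 10.55, 10.50, 10.54, 10.55 and 10.58 in control replicates 1 to 5. The arrays with the lowest neuron mean, Dp5/Dp1 replicates 4 and 2 and control replicate 2, had the highest Ncan. Bcan ran the same way with r = -0.80 and rho = -0.75 but did not pass (exact permutation p = 0.0202 and 0.0336, adjusted p = 0.376 and 0.406). The inverse pattern was not particular to neuron markers. For microglia markers r was -0.78 with Ncan and -0.82 with Bcan (-0.74 and -0.73 without the 2 farthest arrays). For oligodendrocyte markers r was -0.76 with each (-0.54 and -0.59 without the 2 farthest arrays). For astrocyte markers r was -0.62 with Ncan and -0.65 with Bcan (-0.35 and -0.58 without the 2 farthest arrays). Parvalbumin interneuron markers ran the other way, at 0.69 with Ncan and 0.45 with Bcan, but at only 0.19 and 0.20 without the 2 farthest arrays. Acan ran opposite to both with these markers, at r = -0.73 (exact permutation p = 0.0358, adjusted p = 0.386), and at -0.91 without the 2 farthest arrays. Acan and choroid plexus markers had the next-lowest p after Ncan and neurons. Their r was 0.76 and rho 0.70 (exact permutation p = 0.00674 and 0.0522, adjusted p = 0.323 and 0.406), with r = 0.84 without the 2 farthest arrays. None of these passed the adjusted threshold.

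**Figure D5:**
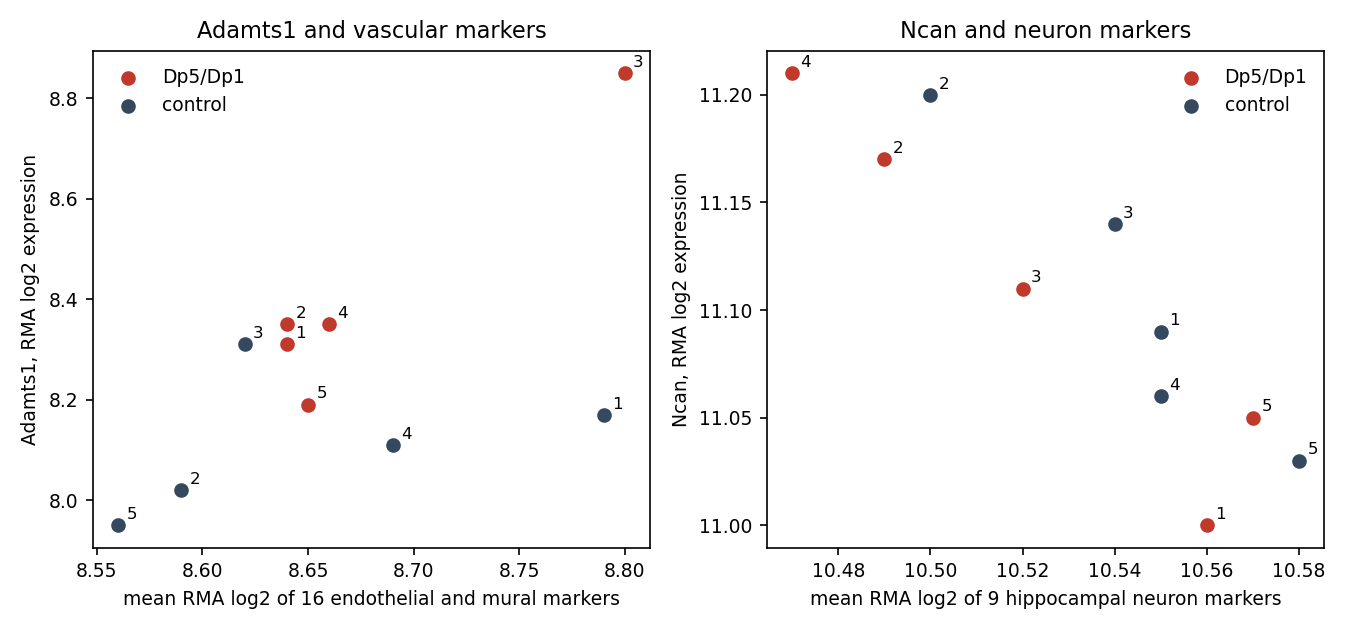
Left, Adamts1 level against the mean of 16 endothelial and mural markers; right, Ncan level against the mean of 9 hippocampal neuron markers, all in RMA log2 expression, 1 point per array with its replicate number, Dp5/Dp1 red and control blue. On the left Dp5/Dp1 replicate 3 stands apart at 8.85 with a marker mean of 8.80; on the right Ncan is lower on arrays with a higher neuron mean in both groups.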

How the data were processed

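The authors normalized Affymetrix Mouse Gene 1.0 ST arrays by RMA and deposited log2 expression values per probe set. RMA, limma and mm10 are named in the submitters' processing notes, whereas versions are not given in the sources used here. The quantile step of RMA makes the distributions of the arrays alike, with medians of 6.73 to 6.80. Arrays correlated across genes at 0.996 to 0.999, and 0 pairs were identical. The platform annotation gave 1 symbol to 21789 of 35556 probe sets and several to 1621, and 12146 were unnamed here. Of the first kind, 21698 were found in the RefSeq gene table (GRCm38.p6), which gave positions. Where a gene had several probe sets (999 genes), that with the highest mean was taken, which left 19938 genes.

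Groups came from the condition label. All genes were tested without covariates (R 4.3.3, limma 3.58.1, moderated two-sided test from lmFit and eBayes, Benjamini-Hochberg over 19938 genes, threshold 0.05), to which "called", "rose" and "fell" refer. FCROS was rewritten from its description (25 array pairs, 0.25 trimmed at each end, f-values under 0.025 or above 0.975) and may differ from the published package. The limma script was tested on simulated data. The number of arrays limits the precision. Correlations used group-centred values and permutation within groups.

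The 8 genes and all lists were chosen with earlier results of these data known. Named were the 8 genes, in each list the called genes or else the 2 with the lowest p, the 4 measured neighbours on each side of the Adamts1 and Adamts5 pair, for each gene the 3 with the most similar pattern, and single markers only where a list differed. Pvalb, Gad1, Cldn5, Kdr and Tek were named after their values were seen. Alternatives were a filter on the dimmest 40% of genes, a second quantile normalization, centring, averaged probe sets, trended and robust variance, weighted arrays, a block for the replicate number, left-out arrays, and marker means as covariates.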

Additional observations from a re-analysis of the deposited data

Results flagged for a closer look

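Adamts1 in Dp5/Dp1 replicate 3, at 8.85, lay far from the other 4 Dp5/Dp1 arrays (8.19 to 8.35) for the range of its group by Dixon's test at 95%. It was 1 of 16 groups of 5 arrays tested, and chance marks about 5% of groups. The same array had the highest endothelial and mural marker mean, 8.80, and Adamts5 was also highest there, at 5.80. The part of either in the other was not tested.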

How the results depend on the processing

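None of the 8 genes was called by limma in any of 20 alternatives (19 for Adamts5, which the filter on dim genes removed). FCROS called 1 higher, Adamts1, and 0 lower. Over the alternatives the limma adjusted p of Adamts1 was 0.278 to 0.999 and that of Adamts5 0.573 to 0.999. Leaving out 1 array at a time gave differences of 0.187 to 0.353 for Adamts1, the lowest without Dp5/Dp1 replicate 3, 0.0818 to 0.123 for Adamts5, 0.00288 to 0.0722 for Adamts4 and -0.0597 to -0.00497 for Bcan. Signs turned only for differences near 0. Acan ran from -0.00549 to 0.0535 with 1 array left out and was -0.00129 without Dp5/Dp1 replicates 2 and 5. Ncan ran from -0.0195 to 0.0327 with 1 array left out and was -0.00915 with the choroid plexus covariate. Gabpa ran from -0.0727 to 0.0221 with 1 array left out and was 0.00809 with that covariate. The cause was not tested.

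Over all genes, 40 were called higher and 1 lower. Without Dp5/Dp1 replicates 2 and 5 this was 21 and 0, which lost the calls of Ltn1 (adjusted p = 0.0548), Rwdd2b (0.0851) and Usp16 (0.276). That of Usp16 was also lost with centring (0.0584), array weights (0.0654) and the choroid plexus covariate (0.0696). Same-numbered arrays correlated across genes at -0.353 to 0.292 after centring each group. This gave no sign that the numbers pair the mice, but with 5 arrays per group it cannot exclude pairing. With the replicate number as a block 26 genes were called higher and 0 lower, Adamts1 had a difference of 0.30 (adjusted p = 0.278) and Adamts5 of 0.11 (adjusted p = 0.795), and the calls of Rwdd2b (adjusted p = 0.0848) and Usp16 (adjusted p = 0.317) were lost.

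Precision is limited by the number of arrays.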

Other observations

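Levels of the 8 genes were set against each other over the 10 arrays after centring each group, and none of 28 pairs passed the adjusted threshold. Bcan and Ncan, the lecticans typical of brain, had r = 0.77 and rho = 0.85 (exact permutation within groups p = 0.0231 and 0.00931, adjusted p of r = 0.612). Without the 2 arrays whose centred Bcan level was farthest from its median, Dp5/Dp1 replicates 5 and 1, r was 0.67. Adamts4 and Hapln1 ran in opposite directions with r = -0.72 and rho = -0.50 (exact permutation p = 0.0437 and 0.192, adjusted p of r = 0.612). The neighbours Adamts1 and Adamts5 had r = 0.13 and rho = -0.05 (exact permutation p = 0.7 and 0.942, adjusted p of r = 0.915).

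The genes with the most similar pattern over the same 10 arrays were looked up among the 11963 genes that were not in the dimmest 40%, as a description with no test. For Adamts1 they were Rragc (r = 0.90), Ogdh (0.90) and Pld4 (0.89), and for Adamts5 Zcchc3 (0.94), Sema3f (0.90) and Smim41 (0.88). For Adamts4 they were Jund (0.94), Vps37b (0.92) and Ccdc167 (0.92). Among the lecticans, Acan was followed by H2-Eb1 (0.97), 2310039H08Rik (0.95) and Rpph1 (0.94), Bcan by Pik3r2 (0.97), Samd4 (0.96) and Grin2c (0.93), Ncan by Otud4 (0.97), Cpne7 (0.94) and Pde1a (0.93), and Vcan by Rnf41 (0.95), Sema3d (0.94) and Sfmbt1 (0.93). For Hapln1 they were Ifnar1 (0.92), Thsd4 (0.90) and Zfp354c (0.90). Of these 24 genes 1 was called by limma, the triplicated Ifnar1, which rose by 0.44 (adjusted p = 0.000409).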
